A study of Arabidopsis thaliana with 30 samples.

Results

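Of the 27655 genes in the expression table of coronatine-treated Arabidopsis thaliana leaves, 188 genes (0.68%) kept a level close to that of water-sprayed leaves at 1 and 3 h and stood far above it at 24 h. They were chosen by the difference between the mean log2(TPM + 1) of the coronatine and the mock libraries at a given time, where TPM is the length- and library-scaled transcript level. A gene was taken when this difference lay strictly between -0.5 and 0.5 at 1 h and at 3 h and was 3 or more at 24 h. The differences at 1, 3 and 24 h chose the genes and are given as a description, with no test. The libraries at 0 and 12 h played no part in the choice, and the tests compare these. The estimate of the spread in the tests and the expression filter also drew on the libraries at 1, 3 and 24 h.

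All plants were jazD in the Col-0 background, a mutant line in which most of the JAZ repressors of jasmonate signalling are disrupted, and all were 26 days old at treatment. Whole leaves were collected after a spray of 5 µM coronatine in water or of water alone (mock), at 0, 1, 3, 12 and 24 h. Each of the 10 groups had 3 libraries, which made 30 in all. The labels do not say whether the replicates came from separate plants or pools, so the p-values cover variation among libraries that may be technical in part or whole. No other genotype was analysed here.

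Coronatine is a bacterial toxin that mimics jasmonoyl-isoleucine and binds the COI1-JAZ receptor, after which JAZ repressors are degraded and MYC-type activators are released. Jasmonate signalling first induces a wave of early genes and, with time, leads leaves to lose chlorophyll. Leaf degreening draws on enzymes that dismantle chlorophyll, on proteases, nucleases and autophagy that break down cell contents, and on transporters that carry the products out of the leaf.

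Of the genes with a difference of 3 or more at 24 h, which numbered 745 (2.69% of the table), the 188 genes made up 25.2%. The other 557 had already moved past a limit at 1 or 3 h. Of the 16075 genes within both early limits, 1.17% were members, while 141 genes had a 24 h difference of -3 or less. The difference at 24 h of the 188 genes ranged from 3.01 to 9.66 with a median of 4.02, and it was 5 or more in 39 of them. At the lower edge, CYP707A4 was taken at 3.01, whereas AIP2 and the gene AT4G23885, both at 2.998, were not. Among genes that missed an early limit, SAG13 had a 1 h difference of 0.515 and a 24 h difference of 4.27, SAUR36 had -0.55 and 5.34, and NAC047 had a 3 h difference of -0.51 with 4.81 at 24 h.

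The word silent describes the response and not the transcript. The mean over the 15 mock libraries was under 1 TPM in 96 of the 188 genes, between 1 and 10 TPM in 58 and 10 TPM or more in 34. Only 12 genes were listed at 0 in every mock library, among them TH7, a thioredoxin, and AAE11, an acyl-activating enzyme. At the other end stood AT3G11930, annotated as an adenine nucleotide alpha hydrolase-like protein, with 196, 187 and 177 TPM in mock leaves at 24 h and 2313, 2042 and 2711 TPM in coronatine leaves. The next highest members in mock leaves at 24 h were the tetratricopeptide repeat protein gene AT1G07590 (163 ± 11 TPM, SD, n = 3), the beta-amylase BAM1 (47.9 ± 0.94 TPM), the autophagy gene APG8A (ATG8A, 40.9 ± 3.2 TPM) and the nitrile specifier NSP5 (39.4 ± 2.1 TPM).

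The early quiet also depends on the scale. The TPM of every library sums to the same total, and the median of all tested genes lay 0.46 below mock at 3 h and 0.54 below it at 12 h on the log2 scale, as differences of -0.46 and -0.54. After rescaling with TMM factors, which align the bulk of genes between libraries, 182 of the 188 genes kept a 1 h difference within the limits and 143 a 3 h difference, the highest 3 h difference being 1.03. In the authors' deposited table, which has values for 184 of the genes, 15 were higher and 3 lower at 1 h at an adjusted p under 0.05, and 74 were higher and 2 lower at 3 h. The log2 fold changes of these genes at 3 h in that table ranged from -3.85 to 5.84 with a median of 0.60. Only 68 lay between -0.5 and 0.5. Among genes described below, the value at 3 h was 4.29 for MYB26, 3.09 for THAS1, 3.08 for PAP20 and 3.04 for UMAMIT25, while IDA had -3.85. The 1 added to TPM before the logarithm also narrows the differences of low genes. With 0.1 added instead, the rule kept 104 of the 188 genes, against 141 with TMM factors. The small difference at 3 h therefore refers to log2(TPM + 1) of the deposited values.

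Summed over the 188 genes, the share of library TPM was between 0.110% and 0.143% in all mock libraries and between 0.108% and 0.127% in the coronatine libraries at 1 and 3 h. At 12 h it was 0.910%, 0.991% and 0.862% in the 3 coronatine libraries, and at 24 h it was 2.6%, 2.36% and 2.82%. Each coronatine library at 12 h lay above every mock library, and each at 24 h lay above every library at 12 h. The values at 1, 3 and 24 h chose the genes, so only the 0 and 12 h shares are free of that choice. Without the 5 members highest in coronatine leaves at 24 h, the shares were 0.698%, 0.774% and 0.671% at 12 h. At 24 h they were then 1.88%, 1.73% and 2.02%. The number of the genes at 1 TPM or more moved with the summed share, from 81 to 98 in mock libraries to between 173 and 178 at 12 h and 188 at 24 h. In bulk leaf tissue, more cells expressing a gene and more transcript per cell cannot be told apart.

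**Figure D1:**
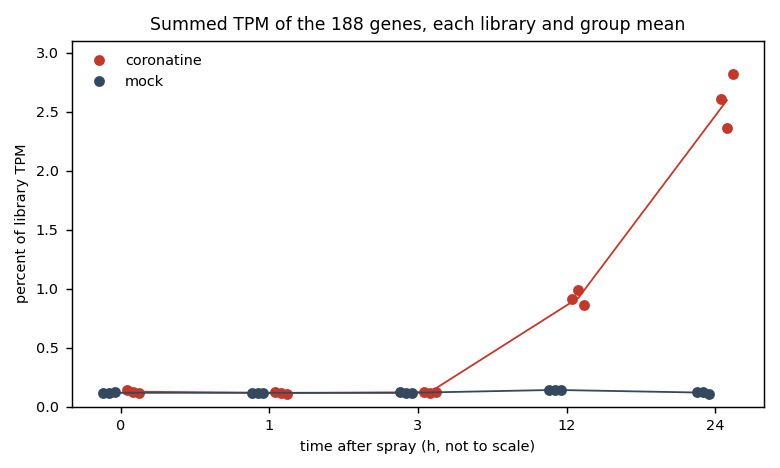
Summed TPM of the 188 genes as a percent of the library's TPM (linear axis from 0), for each library (points) and as the group mean (lines), by hours after the spray, n = 3 libraries a group. Mock libraries stay between 0.110% and 0.143%, and the coronatine libraries reach 0.862% to 0.991% at 12 h and 2.36% to 2.82% at 24 h, the time whose values chose the genes.

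The 250 bases before the annotated start were read for each of the 188 genes from RefSeq on TAIR10.1, to ask which known motifs these late genes share. Letters that NAC transcription factors are known to bind (TTNCGTA or TTNCGTG, on either strand) were in 61 of the 188 promoters (32.4%), in 18% of the promoters of the 557 other genes with a 24 h difference of 3 or more, and in 16.4% of all 27443 promoters. NAC factors include the main regulators of leaf senescence in Arabidopsis. The promoters below are those of the pair of chlorophyll catabolic genes SGR1 and CYP89A9, of the senescence protease gene SAG12 and of GH9B15 and BAC2, members with large 24 h differences and such a match. They run 5′ to 3′ on the gene's strand, and capitals mark matches to the NAC letters.
SGR1 (chr4:12018644-12018893, minus strand, no match): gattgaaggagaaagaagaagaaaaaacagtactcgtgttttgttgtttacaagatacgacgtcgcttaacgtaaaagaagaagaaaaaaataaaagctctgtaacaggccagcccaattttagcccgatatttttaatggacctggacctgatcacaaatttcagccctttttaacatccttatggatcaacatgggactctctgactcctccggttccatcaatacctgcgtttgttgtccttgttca
CYP89A9 (chr3:826586-826835, minus strand, match at -85 from the start): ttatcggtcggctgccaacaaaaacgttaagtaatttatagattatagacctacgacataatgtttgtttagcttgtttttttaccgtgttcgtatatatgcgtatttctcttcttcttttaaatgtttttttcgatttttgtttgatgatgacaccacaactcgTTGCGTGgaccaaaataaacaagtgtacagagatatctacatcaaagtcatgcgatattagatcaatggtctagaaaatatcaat
SAG12 (chr5:18612989-18613238, plus strand, no match): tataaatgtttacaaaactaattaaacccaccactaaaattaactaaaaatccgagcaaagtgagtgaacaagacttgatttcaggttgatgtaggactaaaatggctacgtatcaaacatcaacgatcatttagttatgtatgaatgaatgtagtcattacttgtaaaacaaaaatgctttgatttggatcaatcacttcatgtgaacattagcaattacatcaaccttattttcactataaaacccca
GH9B15 (chr4:12295860-12296109, minus strand, matches at -88 and -61): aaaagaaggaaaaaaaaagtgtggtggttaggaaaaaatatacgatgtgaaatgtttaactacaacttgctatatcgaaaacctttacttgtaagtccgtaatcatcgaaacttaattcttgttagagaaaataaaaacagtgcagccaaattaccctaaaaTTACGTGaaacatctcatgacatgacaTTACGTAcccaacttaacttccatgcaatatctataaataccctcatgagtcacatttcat
BAC2 (chr1:30053937-30054186, minus strand, match at -170): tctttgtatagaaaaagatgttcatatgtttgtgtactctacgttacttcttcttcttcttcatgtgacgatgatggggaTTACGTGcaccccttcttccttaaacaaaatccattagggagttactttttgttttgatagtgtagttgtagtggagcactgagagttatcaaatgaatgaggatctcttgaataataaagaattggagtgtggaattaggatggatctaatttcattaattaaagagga

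The same promoters were searched for 3 other motifs on both strands. The W-box of WRKY factors (TTGACC or TTGACT) was in 37.8% of the 188 promoters against 28.4% of all promoters. It was in 28.9% of the other genes with a large 24 h difference. The ABRE-like letters of abscisic acid response (ACGTGT or ACGTGG) were in 22.9% against 16.0% of all, and in 30.7% of the other genes with a large 24 h difference. The G-box (CACGTG), which MYC factors bind, was in 7.98% against 6.49% of all and 12.7% of the other genes with a large 24 h difference. G-box and ABRE-like letters can overlap, and 14 of the 188 promoters held both. None of the 4 motifs was in 72 of the promoters. With windows of 500 and 1000 bases, NAC letters were in 47.9% and 69.1% of the genes against 28.6% and 47.4% of all promoters. They were in 31.2% and 53.3% of the other genes with a large 24 h difference. In the same windows the W-box was in 49.5% and 74.5% of the genes against 45.2% and 67.3% of all promoters. These are letter matches in a fixed window and no test was made of them.

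**Figure D2:**
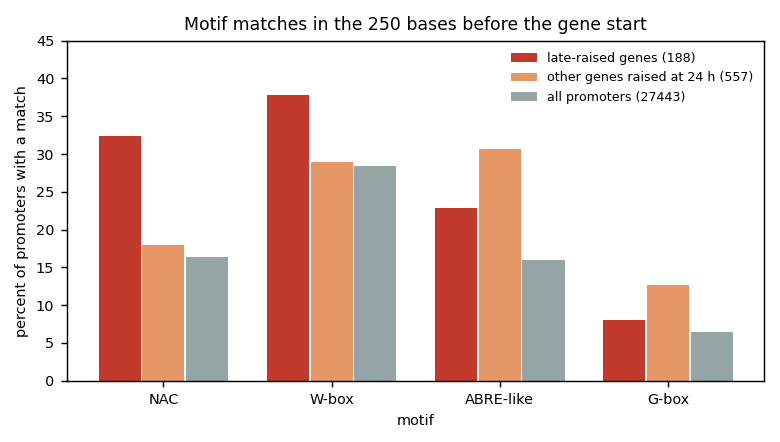
Percent of promoters (linear axis from 0) with at least 1 match to each of 4 motifs in the 250 bases before the RefSeq gene start, for the late-raised genes, the other genes with a 24 h difference of 3 or more, and all promoters. NAC letters are in 32.4% of the late-raised genes and 16.4% of all promoters, whereas the G-box and ABRE-like shares are highest in the other genes raised at 24 h.

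At 12 h, a time that the choice of genes did not use, 181 of the 188 genes rose and none fell. A gene was called where limma's moderated test, with Benjamini-Hochberg adjustment over the 19005 genes tested, gave an adjusted p under 0.05 and 1 sign with both the deposited TPM and TMM-rescaled TPM. By this rule 24.3% of all tested genes were higher and 41.7% lower at 12 h. The median difference was 2.12 in the 188 genes and -0.54 in all tested genes. In 181 of the 188 genes (96.3%) all 3 coronatine values lay above all 3 mock values, which held for 24.8% of tested genes. A difference of 1 or more was seen in 162 of the genes and in 10.7% of tested genes, one of 2 or more in 109 and in 5.05%, and one of 3 or more in 46 and in 2.49%.

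The background depends on the scale more than the count of these genes does. Over all tested genes, 4609 were higher and 7926 lower on both scales, 4609 and 11700 on TPM alone, and 8238 and 7926 on TMM-rescaled TPM alone. Of the 188 genes, 181 were higher on TPM alone and 184 on TMM-rescaled TPM alone. By the authors' deposited table, a total of 177 of 184 genes (96.2%) were higher at 12 h, against 37.3% of all genes with values. The 188 genes had all passed the filter of 1 TPM in 3 libraries, but 17 of them would not have without the coronatine libraries at 24 h, since 171 passed without those, and 109 passed without the coronatine libraries at 12 and 24 h. With the filter set on the libraries at 0 and 12 h, 12 of the 181 genes called were no longer tested, namely MAN1, MIF3, ULT2, LAC7, SWEET7, CYP82C2, BGLU24, AT1G23640, AT2G33690, AT3G19615, AT5G45570 and AT5G49600. Their 12 h calls, given below for several of them, rest on a filter passed only through the coronatine libraries at 24 h, which chose the genes. Among the genes not called, SAG12, AAE11, UMAMIT33, BGLU30 and GPAT5 also passed the filter only through those libraries. The counts by role that follow are to be read against the 96.3% of all 188 genes and the 24.3% of tested genes that were higher; no role was tested against the others.

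Genes differed in how far they had moved by 12 h. The 12 h difference had a median of 0.558 of the 24 h difference, was at least 50% of it in 110 genes, and was under 0.5 in 9 genes. Only GH3.3, AT1G07400 (an HSP20-like chaperone), AtCDC48B and AT1G52130 (a mannose-binding lectin) had a 12 h difference as large as or larger than the 24 h difference. GH9B15, GH3.3, BRU6, BGAL4, CYP89A9, DOX1, BAC2, CYP78A7, 5PTASE11 and AtCDC48B had the largest 12 h differences among the genes with a symbol, from 3.92 to 6.34. The smallest among those with a symbol were those of GPAT5, AAE11, BGLU30, SAG12, UMAMIT33, YSL8, BFN1, GSTU24, MAN1 and ABCG1, from -0.07 to 0.81.

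**Figure D3:**
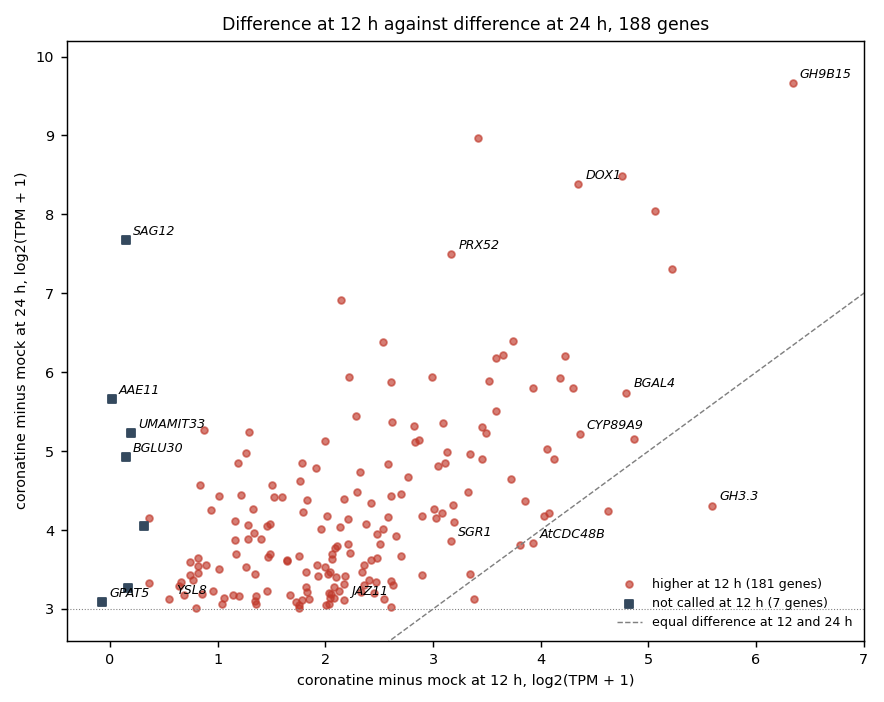
Difference between coronatine and mock means in log2(TPM + 1) at 12 h (x axis) against that at 24 h (y axis) for the 188 genes, with the genes not called at 12 h as squares and the dashed line marking equal differences. The limit of 3 at 24 h (dotted) belongs to the choice of genes; most genes lie above the dashed line, GH3.3 lies below it, and SAG12 sits near 0 at 12 h and at 7.67 at 24 h.

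The 3 members that act in chlorophyll breakdown rose at 12 h. SGR1 (AT4G22920), which removes magnesium from chlorophyll a, had 17.3, 17.9 and 21.3 TPM in mock leaves and 166, 200 and 166 TPM in coronatine leaves at 12 h, and 342, 342 and 369 TPM in coronatine leaves at 24 h. The groups did not overlap, and the 12 h difference was 3.17 ± 0.10 (log2, SE; limma adjusted p = 2.2e-19). At 3 h the coronatine libraries had read 15.6, 12.3 and 13.5 TPM against 18.8, 15 and 14.8 TPM in mock leaves, overlapping ranges.

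CYP89A9 (AT3G03470), a cytochrome P450 that converts chlorophyll catabolites to their non-fluorescent dioxobilin form, had 11.9, 11.5 and 11.6 TPM in mock leaves and 262, 276 and 240 TPM in coronatine leaves at 12 h (4.36 ± 0.13, adjusted p = 4.6e-20, limma). It sat close to the early limit, with a 3 h difference of 0.48. At 3 h the coronatine leaves had 38.2 ± 5.3 TPM (SD, n = 3) and the mock leaves 30.2, 24.7 and 26.2 TPM. In the authors' deposited table its 3 h log2 fold change was 1.04. MES16 (AT4G16690), the esterase that demethylates fluorescent chlorophyll catabolites, had 11.6, 11.1 and 11.2 TPM in mock leaves and 49.2, 50.8 and 44.6 TPM in coronatine leaves at 12 h, and 198, 170 and 200 TPM at 24 h. Its 12 h difference was 2.00 ± 0.10 (limma adjusted p = 5.3e-16).

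A list of 14 genes of chlorophyll breakdown, all tested, held 8 that were higher and 3 that were lower at 12 h. Apart from the 3 members, PPH and PAO, which dephytylate and open the chlorophyll ring, were higher by 3.37 and 3.29 at 12 h, but their 3 h differences of 2.64 and 1.27 kept them out. NYC1, the chlorophyll b reductase, missed an early limit with a 3 h difference of -0.66 and had 0.36 at 12 h and 3.14 at 24 h. RCCR and HCAR, which also act in the pathway, were lower at 12 h, with differences of -1.29 and -1.2.

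Of the 7 members that act in protein breakdown and autophagy, 6 rose at 12 h, and the 1 that was not called was SAG12. SAG12 (AT5G45890), a cysteine protease widely used as a marker of leaf senescence, read 0.25, 0 and 0.1 TPM in mock leaves and 0.37, 0.37 and 0 TPM in coronatine leaves at 12 h, with a difference of 0.15 ± 0.30 (limma adjusted p = 0.65). At 24 h it was listed at 0 in all 3 mock libraries and read 167, 223 and 224 TPM in the coronatine libraries. It was under 1 TPM in every library other than those of coronatine leaves at 24 h and replicate 1 of the coronatine group at 0 h, which read 2.95 TPM. SAG12 was not tested under the filter on the 0 and 12 h libraries.

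APG8A (AT4G21980) and ATG8H (AT3G06420), 2 of the ATG8 proteins that coat autophagosomes, had moved by 12 h. APG8A had 55.8, 49.3 and 53.1 TPM in mock leaves and 207, 233 and 217 TPM in coronatine leaves at 12 h (2.03 ± 0.10, adjusted p = 5.4e-16, limma). ATG8H had 13.2, 13.8 and 9.59 TPM against 109, 132 and 113 TPM (3.18 ± 0.14, adjusted p = 1.4e-16, limma). AtCDC48B (AT3G53230), an AAA ATPase of the family that extracts ubiquitinated proteins, had 12 h values in coronatine leaves above all of its 24 h values, with 124, 133 and 122 TPM at 12 h and 66.6, 59.9 and 62.8 TPM at 24 h. The serine carboxypeptidase-like gene scpl40, the subtilase SBT3.5 and AT5G20000 rose by between 1.28 and 2.90 at 12 h. SAG12 was the only member on a list of proteases of senescence and the vacuole, of which 6 of 14 tested genes were higher and none lower at 12 h.

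On a list of 25 regulators and markers of senescence, 16 were higher and 3 lower at 12 h and 11 had a 24 h difference of 3 or more, yet SAG12 was the single member. NAC factors on the list had early differences of either sign. NAC019 had differences of 3.46 at 1 h and 5.14 at 3 h, ORE1 had 2.03 at 3 h, and NAC072 had 3.41 at 1 h. NAC046 reached 0.82 at 3 h, 3.26 at 12 h and 3.52 at 24 h. At 3 h NAP had -2.37, ORS1 -1.6, JUB1 -1.26, VNI2 -0.88 and ATAF1 -0.70, and ORS1 was lower at 12 h.

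**Figure D4:**
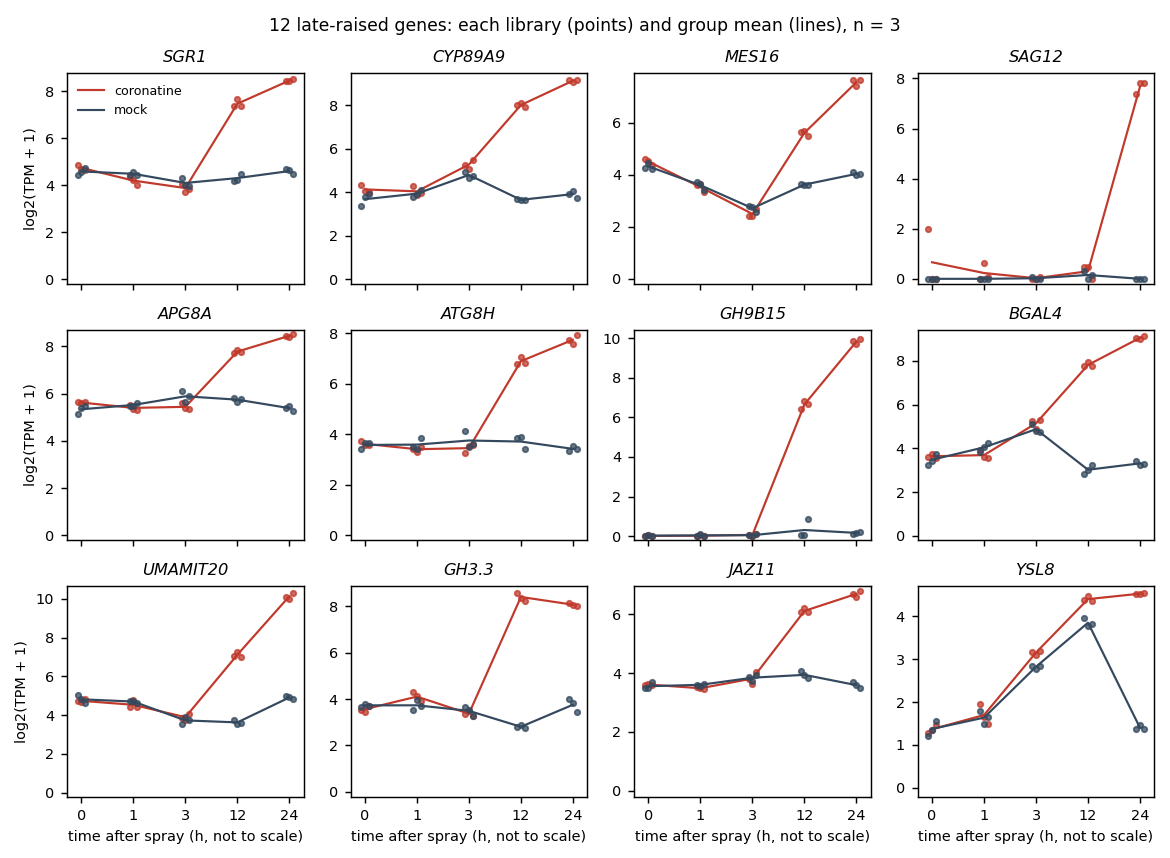
Level of 12 of the genes in log2(TPM + 1) (y axis, a separate range in each panel) by hours after the spray, for each library (points) and as the group mean (lines) in coronatine and mock leaves, n = 3 libraries a group. The treatments lie close at 1 and 3 h, as the choice of genes required. SAG12 is far above mock only at 24 h, with a 0 h difference of 0.66 that came from replicate 1 of the coronatine group. GH3.3 (AT2G23170) is higher at 12 h than at 24 h. YSL8 (AT1G48370) climbs in mock leaves too up to 12 h and is back near its 0 h level there at 24 h.

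The members for nucleic acids and phosphate also rose. CDA1 (AT2G19570), a cytidine deaminase, had 31.2, 25.7 and 32.3 TPM in mock leaves and 137, 178 and 145 TPM in coronatine leaves at 12 h. BFN1 (AT1G11190), a nuclease of senescence and programmed cell death, was among the slowest, with 3.00, 2.29 and 2.61 TPM in mock leaves and 4.81, 5.04 and 4.14 TPM in coronatine leaves at 12 h (0.64 ± 0.12, adjusted p = 3.6e-05, limma), and 28.6, 25 and 34.8 TPM at 24 h. Its groups did not overlap at 12 h. On a list of nucleases and genes of developmental cell death, 5 of 8 tested genes were higher and none lower at 12 h.

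The purple acid phosphatases PAP20 and PAP22, which release phosphate and whose genes lie on chromosome 3 with 3 genes between them, rose by 3.52 ± 0.10 and 3.46 ± 0.11 at 12 h. PAP20 was at or below 0.07 TPM in mock leaves at 12 h and had 9.86, 13.7 and 9.57 TPM in coronatine leaves. They are related genes, and reads could be divided between them by the authors' counting. NPC4, a phospholipase C that remodels membrane lipids under low phosphate, rose by 1.2 ± 0.16 at 12 h. On a list of phosphate starvation genes, 4 of 14 tested were higher and 3 lower at 12 h, and NPC4 was the only member.

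Of the 15 members that encode transporters, 14 rose at 12 h. The UMAMIT family, which exports amino acids, had 4 members. UMAMIT20 (AT4G08290) had the highest level of these at 24 h, with 1101, 1014 and 1290 TPM in coronatine leaves against 30.7, 29.8 and 27.1 TPM in mock leaves, and at 12 h it had 134, 154 and 128 TPM against 12.6, 10.6 and 10.9 TPM (3.49 ± 0.11, adjusted p = 1.8e-19, limma). UMAMIT29 (AT4G01430) rose by 3.65 ± 0.18 and UMAMIT25 by 1.92 ± 0.11 at 12 h, the latter from 0 TPM in all 3 mock libraries to 2.65, 3.98 and 2.00 TPM. UMAMIT33 (AT4G28040) was not called: it read 0.17, 0.17 and 0.09 TPM in mock leaves and 0.28, 0.42 and 0.23 TPM in coronatine leaves at 12 h, with no overlap, and 46.4, 31.2 and 52.0 TPM at 24 h. Its 12 h adjusted p was 0.14 on TPM and 0.023 on TMM-rescaled TPM (limma). UMAMIT33 was not tested under the filter on the 0 and 12 h libraries.

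Other transporters carried sugars, peptides and basic amino acids. SWEET7 (AT4G10850), a sugar carrier, was at 0 in all 3 mock libraries at 24 h and at 38.9, 33.8 and 40.3 TPM in coronatine leaves, while its 12 h values of 0.74, 0.98 and 1.08 TPM gave a difference of 0.87 ± 0.07 (limma adjusted p = 3.8e-11), though it was not tested under the filter on the 0 and 12 h libraries. On a list of sugar transporters, 5 of 14 tested genes were higher and 4 lower at 12 h. BAC2 (AT1G79900), a mitochondrial carrier of basic amino acids whose promoter is shown above, had 0.77, 0.52 and 0.41 TPM in mock leaves and 27.0, 30.1 and 25.1 TPM in coronatine leaves at 12 h. The peptide transporter PTR3 rose by 2.09 ± 0.22 and the ABC transporter ABCG1 by 0.81 ± 0.16. On a list of 16 genes of nitrogen remobilisation, 5 were higher and 8 lower at 12 h, and none was a member.

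YSL8, of the yellow stripe-like family of metal transporters, also moved in mock leaves. It had 1.33, 1.53 and 1.95 TPM in mock leaves at 0 h, 14.5, 12.7 and 13.0 TPM at 12 h and 1.58, 1.75 and 1.59 TPM at 24 h. In coronatine leaves it had 19.6, 21.0 and 19.5 TPM at 12 h and 21.8, 21.9 and 22.2 TPM at 24 h. The coronatine values at 24 h lay just above those at 12 h, while the mock values at 24 h lay far below those at 12 h. The 12 h difference was 0.55 ± 0.10 (limma adjusted p = 1.2e-05) and the 24 h difference 3.12.

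Of the 12 members with a role in the cell wall, 11 rose at 12 h. LAC7 and MAN1, counted among these, were not tested under the filter on the 0 and 12 h libraries. GH9B15 (AT4G23560), a glycoside hydrolase of the cellulase-like family GH9, had the largest 24 h difference of all 188 genes. It read 0.03, 0.03 and 0.81 TPM in mock leaves and 84.6, 114 and 103 TPM in coronatine leaves at 12 h (6.34 ± 0.14, adjusted p = 1.1e-22, limma), and 917, 836 and 976 TPM at 24 h. PRX52 (AT5G05340), a class III peroxidase of lignin synthesis, had 2.97, 4.90 and 3.09 TPM against 35.5, 50.4 and 36.2 TPM at 12 h, and 615, 534 and 624 TPM in coronatine leaves at 24 h. IRX15 and FRA8, which act in xylan synthesis, rose by 2.61 ± 0.15 and 1.34 ± 0.19, and the laccase LAC7 by 0.83 ± 0.21.

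The mannanase MAN1 rose by 0.77 ± 0.15, and AT1G23200, annotated as a pectin methylesterase inhibitor family protein, was not called. Its values of 1.22, 0.89 and 1.05 TPM in mock leaves and 1.43, 1.14 and 1.35 TPM in coronatine leaves overlapped at 12 h, and it reached 23.9, 18.9 and 26.8 TPM at 24 h. Beside these, the summed level of 6 xylem marker genes was 36.7 to 42.2 TPM in mock and 41.9 to 50.6 TPM in coronatine leaves at 12 h, and 36.9 to 45.2 and 75.8 to 87.7 TPM at 24 h; 1 of 5 tested markers was higher at 12 h. Its part in the results for cell wall genes was not tested.

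The 13 members that encode transcription regulators rose at 12 h, although MIF3 and ULT2 were not tested under the filter on the 0 and 12 h libraries. LBD15 (AT2G40470), a LOB domain protein, had 0.41, 0.59 and 0.40 TPM in mock leaves and 6.03, 8.91 and 7.72 TPM in coronatine leaves at 12 h, and 123, 100 and 120 TPM at 24 h, the largest 24 h difference of these. NAC075, MYB26 (AT3G13890) and AtMYB103, regulators of secondary wall formation, rose by 2.18 ± 0.11, 2.62 ± 0.07 and 2.13 ± 0.10. MYB26 had 0, 0 and 0.11 TPM in mock leaves and 5.00, 5.4 and 5.76 TPM in coronatine leaves at 12 h. The zinc finger homeodomain gene ZFHD1 rose by 1.5 ± 0.09 and the heat shock factor HSFB3 by 1.76 ± 0.09. At 24 h AtMYB103 had 8.55, 9.62 and 10.9 TPM in coronatine leaves.

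The 9 members in hormone metabolism and signalling all rose at 12 h. GH3.3 and BRU6 (GH3.2) conjugate auxin to amino acids. GH3.3 had 6.02, 6.28 and 5.67 TPM in mock leaves and 381, 329 and 301 TPM in coronatine leaves at 12 h (5.59 ± 0.13, adjusted p = 3.6e-22, limma), and 281, 262 and 257 TPM at 24 h. BRU6 had 1.47, 0.72 and 0.86 TPM against 57.8, 65.6 and 49.5 TPM at 12 h, and 65.2, 46.0 and 77.8 TPM at 24 h, a range that overlapped its own 12 h values. NIT2 (AT3G44300), a nitrilase of auxin synthesis, went on from 96.5, 113 and 88.5 TPM at 12 h to 685, 573 and 725 TPM at 24 h.

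CKX2 (AT2G19500), which degrades cytokinins, had 0, 0 and 0.07 TPM in mock leaves and 8.29, 10.7 and 5.53 TPM in coronatine leaves at 12 h. CCD8, of strigolactone synthesis, rose by 1.26 ± 0.13 and reached 28.6, 28.6 and 36.5 TPM at 24 h. HAI2, a clade A phosphatase that dampens abscisic acid signalling, rose by 2.23 ± 0.11, and CYP707A4, which hydroxylates abscisic acid, by 1.75 ± 0.10. IDA (AT1G68765), the peptide that triggers abscission, had 0.08 TPM in each mock library and 1.22, 2.65 and 1.14 TPM in coronatine leaves at 12 h. On lists of abscisic acid response and late embryogenesis genes and of abscission and wall loosening, 7 of 13 and 2 of 5 tested genes were higher at 12 h, and 3 and 2 were lower.

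JAZ11 (AT3G43440), one of the JAZ repressors that jazD leaves intact, was a member. It had 15.7, 14.3 and 13.2 TPM in mock leaves and 66.7, 72.8 and 66.2 TPM in coronatine leaves at 12 h (2.18 ± 0.08, adjusted p = 3.8e-18, limma), and 103, 95.8 and 111 TPM at 24 h. At 3 h the coronatine libraries had read 12.9, 11.3 and 15.3 TPM.

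The 6 members in kinase, calcium and ion signalling rose, by 1.46 to 2.45. The largest was KAT1 (AT5G46240), the inward potassium channel of guard cells, with 8.20, 6.83 and 7.61 TPM in mock leaves and 48.8, 44.5 and 43.8 TPM in coronatine leaves at 12 h. The other 3 guard cell markers summed to 39.3 to 40.6 TPM in mock and 39.5 to 42.2 TPM in coronatine leaves at 12 h, ranges that overlapped, and to 33.2 to 35.3 and 43.3 to 47.9 TPM at 24 h; none of the 3 was called at 12 h. Their part in the result for KAT1 was not tested.

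All 7 members in defence and specialised metabolism rose, although CYP82C2 was not tested under the filter on the 0 and 12 h libraries. DOX1 (AT3G01420), an alpha-dioxygenase of fatty acids, had 0.66, 0.79 and 1.18 TPM in mock leaves and 37.6, 53.9 and 25 TPM in coronatine leaves at 12 h, and 394, 339 and 494 TPM at 24 h. The protease inhibitor UPI and the aphid-induced lipase MPL1 rose by 3.58 ± 0.36 and 2.99 ± 0.18. THAS1 (AT5G48010), which makes the triterpene thalianol, rose by 3.58 ± 0.23, and NSP5 (AT5G48180), which steers glucosinolate breakdown to nitriles, by 2.61 ± 0.09. NSP5 had 936, 785 and 903 TPM in coronatine leaves at 24 h. OSM34 (AT4G11650), an osmotin-like protein, rose by 1.78 ± 0.47, with 9.51, 21.1 and 6.54 TPM in coronatine leaves at 12 h. Replicate 1 of the coronatine group at 0 h read more OSM34 than any of these. Within coronatine leaves, 12 h against 0 h, OSM34 was not called. On a list of salicylate genes, 7 of 18 were higher and 4 lower at 12 h, and none was a member.

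Detoxification and sugar enzymes followed the same course, with exceptions. The neighbouring aldo-keto reductase genes AKR4C8 and ChlAKR rose by 3.01 ± 0.10 and 2.28 ± 0.24, and the glutathione transferases GSTU1 and GSTU24 by 1.64 ± 0.18 and 0.74 ± 0.15. Among glycoside hydrolases, the beta-galactosidase BGAL4 (AT5G56870) had 6.01, 7.07 and 8.46 TPM in mock leaves and 215, 246 and 214 TPM in coronatine leaves at 12 h (4.80 ± 0.14, adjusted p = 1.4e-20, limma). The amylases BAM1 and AMY1 rose by 2.54 ± 0.08 and 1.76 ± 0.16.

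The 3 members of the BGLU family of beta-glucosidases differed. BGLU10 (AT4G27830), of anthocyanin synthesis, had 39.7, 36.5 and 41.9 TPM in mock leaves and 135, 129 and 118 TPM in coronatine leaves at 12 h. BGLU30 (AT3G60140), a dark-induced gene, was not called, with 0.06, 0.09 and 0.06 TPM against 0.19, 0.31 and 0.06 TPM at 12 h, and 29.7, 21.2 and 42.2 TPM in coronatine leaves at 24 h. BGLU24 (AT5G28510) was called with 0.10, 1.2 and 5.76 TPM in coronatine leaves and 0, 0.13 and 0.60 TPM in mock leaves, which overlap. Its adjusted p of 0.029 (limma) rested on replicate 3 of the coronatine group, without which it was 0.39. The gene was not tested under the filter on the 0 and 12 h libraries. On lists of anthocyanin synthesis and of carbon starvation genes, 7 of 18 and 12 of 23 tested genes were higher at 12 h, and 2 of each were lower; BGLU10 and BGLU30 were the members on them.

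The 8 cytochrome P450 members ranged from CYP71B10, with 5.4, 8.46 and 8.33 TPM in coronatine leaves at 24 h, to CYP89A9. CYP76C2, CYP81G1, CYP710A1 and CYP71B10 rose by between 2.58 and 2.82 at 12 h, CYP78A7 by 4.03 ± 0.09 and CYP707A4 as given. CYP82C2, not tested under the filter on the 0 and 12 h libraries, rose by 1.17 ± 0.16. CYP78A7 had 17.6, 17.4 and 19.2 TPM at 12 h and 22, 17.7 and 22.6 TPM at 24 h in coronatine leaves, overlapping ranges. The glycerol-3-phosphate acyltransferases differed: GPAT1 rose by 3.11 ± 0.10, while GPAT5 (AT3G11430), which acts in suberin synthesis, had 0.12, 0.15 and 0.15 TPM in mock leaves and 0, 0.16 and 0.10 TPM in coronatine leaves at 12 h and 8.04, 7.12 and 8.68 TPM at 24 h.

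**Figure D5:**
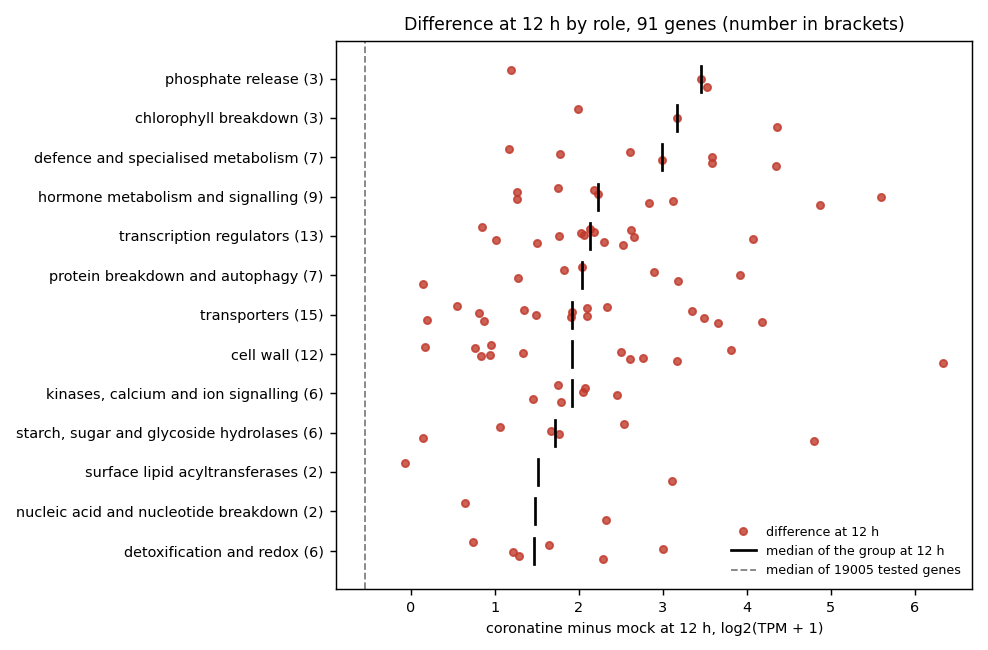
Difference between coronatine and mock means in log2(TPM + 1) at 12 h for the 91 genes placed in a role group (points, spread vertically for legibility), with the median of each group (bar) and of the 19005 genes tested (dashed line at -0.54). All groups have medians above 1; the points near 0 are SAG12, UMAMIT33, AT1G23200, BGLU30 and GPAT5.

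The 7 genes not called at 12 h were SAG12, AAE11 (AT1G66120), UMAMIT33, BGLU30, GPAT5, AT1G23200 and AT2G38380, a peroxidase. Of these, only AT1G23200 and AT2G38380 were tested under the filter on the 0 and 12 h libraries. AAE11 was listed at 0 in all 3 mock libraries and in 2 of 3 coronatine libraries at 12 h, with 0.03 TPM in the third, and had 55.1, 42.1 and 52.1 TPM at 24 h. AT2G38380 read 3.04, 2.11 and 1.64 TPM in mock and 1.81, 5.00 and 2.78 TPM in coronatine leaves at 12 h, and 38.4, 27.7 and 35.1 TPM at 24 h. A p that misses the threshold does not show that these genes had not moved by 12 h, and UMAMIT33, AT1G23200 and AT2G38380 were called on TMM-rescaled TPM alone.

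At 0 h, limma called 0 of the 188 genes and 0.0% of the 19005 tested genes between the treatments, with 15 of the genes and 1012 of all genes at an unadjusted p under 0.05. The authors' deposited table called 0 genes as well. The difference had a median of 0.08 and was above 0.5 in 8 genes: OSM34, AT1G80165, UPI, DOX1, SAG12, NIT2, AT2G45220 and CYP76C2. In each of these, replicate 1 of the coronatine group was the highest of the 6 libraries, with 23.7 TPM of OSM34 against 1.84 to 6.59 TPM elsewhere at 0 h. That library also had the highest summed share at 0 h, 0.139% against 0.111% to 0.122%.

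In mock leaves, 26 of the 188 genes (13.8%) were higher and 12 (6.38%) lower at 12 h than at 0 h, against 20.7% and 10.1% of tested genes. YSL8 rose by 2.47 and AT4G12290, a copper amine oxidase, by 2.21, the largest changes of these, followed by AT5G40690 (1.3), SS2 (1.25), BON1 (1.08) and AtCDC48B (0.92). UMAMIT20, CYP707A4, GH3.3, MES16 and SGR1 were lower in mock leaves at 12 h than at 0 h, with differences of -1.19, -0.95, -0.92, -0.70 and -0.28. The call of SGR1 was lost without replicate 1 or 2 of the mock group at 12 h or replicate 3 of that at 0 h (limma adjusted p between 0.075 and 0.13). For these genes the lower mock level is part of the 12 h difference. Measured within coronatine leaves, 12 h against 0 h, UMAMIT20 was higher by 2.38, CYP707A4 by 0.80, GH3.3 by 4.83, MES16 by 1.11 and SGR1 by 2.73.

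Within coronatine leaves 181 of the 188 genes were higher at 12 h than at 0 h and none lower, against 30.9% and 42.0% of tested genes. This comparison shares the coronatine libraries at 12 h with the one against mock. The 7 not called were those not called against mock, with OSM34 in place of AT2G38380.

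The 188 genes were spread over the 5 nuclear chromosomes of the RefSeq annotation, 55 on chromosome 1, 31 on 2, 33 on 3, 28 on 4 and 41 on 5. Direct neighbours formed 4 pairs: FRA8 with the transporter gene AT2G28120, AKR4C8 with ChlAKR, AT3G60961 with AT3G60966, and BGLU24 with the lectin gene AT5G28520. With up to 3 genes between them there were 11 pairs. The pair AKR4C8 and ChlAKR had 195, 193 and 190 TPM and 19.8, 11.2 and 15.4 TPM in coronatine leaves at 12 h. Whether counting used strand is not given in the sources used here, so reads of overlapping neighbours cannot be told apart.

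The summed mesophyll and epidermis markers were lower in coronatine than in mock leaves at 12 and 24 h, while other leaf markers moved less. The summed level of 4 mesophyll markers, photosynthesis genes among them, was 21121 to 22257 TPM in mock and 5057 to 6607 TPM in coronatine leaves at 12 h, and 39522 to 40972 and 1893 to 3215 TPM at 24 h. The part of this fall in the results for the 188 genes was not tested. Rescaling with TMM factors aligns the bulk of genes and does not isolate this fall. After it, the median 12 h difference of the 188 genes was 2.66 where TPM gave 2.12. The 4 epidermis markers, all lower at 12 h, summed to 309 to 346 TPM in mock and 25.5 to 35.4 TPM in coronatine leaves at 12 h, and to 352 to 365 and 10.4 to 17 TPM at 24 h. Of 3 trichome markers 1 was higher and 2 were lower at 12 h, and they summed to 15.8 to 18.7 TPM in mock and 13.4 to 14.3 TPM in coronatine leaves. Phloem markers summed to 218 to 264 TPM in coronatine and 265 to 279 TPM in mock leaves at 12 h, when 1 of 4 was higher and none lower. At 24 h they summed to 242 to 257 TPM in coronatine and 259 to 271 TPM in mock leaves. The 2 myrosin cell markers, neither called at 12 h, then summed to 7657 to 8927 TPM in coronatine and 8315 to 9261 TPM in mock leaves. Flower and seed markers stayed under 1 TPM in every group at 12 and 24 h.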

How the data were processed

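Gene-level TPM for 30 libraries was analysed as the authors deposited it. RSEM 1.3.3, DESeq2 and the TAIR10 build are named, with no roles, in the submitters' processing notes. Since TPM keeps no depth, depth is unknown and no counting intervals were given. Comparison tables deposited by the authors hold, per the file headers, a base mean (signal), log2 fold change and SE (log2), a test statistic (score) and p-values.

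Genes with TPM of at least 1 in at least 3 libraries (19005) were tested on log2(TPM + 1) with limma 3.58.1 (trend, 10 groups, two-sided, R 4.3.3) at 0.05. Log2 differences understate changes of low genes. Calls needed agreement of TPM and TMM-rescaled TPM (trim of 30% and 5%). The test was tried on simulated data with independent noise and few genes changed. Those data lacked the broad shift of genes seen at 12 h, so the trial does not cover it.

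The members, gene lists, role groups and named genes were chosen with earlier results of these data known. Genes were named if they were on a list, in a symbol family of 3 or more, neighbours, at a limit of the rule, or among the 15 largest 24 h, 10 largest or smallest 12 h differences or 5 highest levels. Others, such as those not called at 12 h, were named after their values were seen. Symbols came from the lists or RefSeq, which matched all 188. Promoters are on TAIR10.1.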

Additional observations from a re-analysis of the deposited data

How the results depend on the processing

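The count of the genes higher at 12 h was 181 and ranged from 169 to 185 over the alternatives; 169 came from a filter over the 0 and 12 h libraries, under which fewer genes were tested. The number of all genes higher at 12 h went from 4609 to 8238 with TMM-rescaled TPM alone, 7631 with quantile normalization and 8114 in the authors' table. At 0 h, pseudocount 0.1 called 1 gene higher, and no filter called 2 higher and 3 lower. For mock leaves at 12 against 0 h, TPM alone called 54 of the genes and 9619 of all genes higher (26 and 3933 by both scales). For the same comparison TMM-rescaled TPM alone called 4013 of all genes lower (1921), and quantile normalization 21 of the genes and 3880 of all genes lower (12 and 1921). The cause was not tested.

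The membership rests on the scale: the rule took 119 genes with pseudocount 5 (77 shared), 214 with pseudocount 0.1 (104 shared), 220 with TMM factors (141 shared) and 165 with the authors' fold changes (50 shared). Limits of 2 and 4 at 24 h gave 514 and 95 genes, and early limits of 0.25 and 1 gave 102 and 309. GPAT5, not called, had a 12 h difference of 0.0932 under quantile normalization against -0.07. BGLU24 lost its call with pseudocount 5, with no filter, without replicate 3 of the coronatine or 1 or 2 of the mock group, and in the authors' table (adjusted p between 0.055 and 0.39).

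Leaving out 1 library at a time gave 180 to 181 of the genes higher and 0 lower at 12 h, 4452 to 4543 of all genes higher and 7719 to 7793 lower. At 0 h it gave 0 throughout. In mock leaves it gave 23 to 29 of the genes higher and 9 to 14 lower, and in coronatine leaves at 12 against 0 h 180 to 182 higher. The rule took 176 to 201 genes. With the replicate block, 181 of the genes were higher at 12 h. Same-numbered libraries did not deviate together (correlations between -0.25 and 0.12), so the numbers were not taken as pairs. TPM holds no depth, which limits what can be said of genes under 1 TPM.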

Other observations

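Among the 188 genes, 85 had no symbol, and several of these had some of the largest values. AT1G44542, annotated as a cyclase family protein, had 0, 0.05 and 0.38 TPM in mock leaves and 10.4, 12.3 and 10.7 TPM in coronatine leaves at 12 h, and 515, 471 and 608 TPM at 24 h. AT1G02470, of a polyketide cyclase and lipid transport family, had 2.01, 1.80 and 1.88 TPM against 90.1, 106 and 91.2 TPM at 12 h, and 574, 489 and 622 TPM at 24 h. AT2G23445, which has no annotation in the files, was listed at 0 in all 15 mock libraries and had 40.1, 43.2 and 27.6 TPM in coronatine leaves at 12 h and 175, 139 and 162 TPM at 24 h. The 3 rose at 12 h by 3.42 ± 0.10, 5.06 ± 0.19 and 5.22 ± 0.11 (log2, SE).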
